A study of Mus musculus with 9 samples.

Results

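The epidermal growth factor (EGF) family was examined as 10 genes: the 6 ligands Egf, Hbegf, Areg, Ereg, Tgfa and Btc and the 4 receptors Egfr, Erbb2, Erbb3 and Erbb4. The genes were chosen by name, and all 10 were present among the 22637 gene symbols of the deposited tables. All 10 also passed the filter on low counts, which kept 17315 symbols. The measurements came from whole-kidney RNA of mice of strain 129X1/SvJ at 9 weeks of age. KO_antimiR21 was Col4a3 -/- mice given antimiR-21, an inhibitor of the microRNA miR-21. KO_PBS was Col4a3 -/- mice given PBS. WT was wild-type mice, with no treatment given in the labels. Each group had 3 libraries, 9 in all. The labels do not say that each library came from its own animal. A different number opens each deposited name, its meaning is not given in the sources used here, and the p-values below reflect the variation among libraries, part of which may be technical. Col4a3 encodes a chain of the type IV collagen of the glomerular basement membrane, and mice lacking it serve as a model of Alport syndrome.

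Ligands of this family are made as membrane-anchored precursors. Sheddases, which are membrane proteases of the ADAM family, cut the precursor and release the soluble growth factor. Released ligand binds Egfr or Erbb4, receptor tyrosine kinases that pair with each other, with Erbb2, which has no known ligand of its own, or with Erbb3, which binds neuregulins and has weak kinase activity. Paired receptors signal through adaptors to the ERK and PI3K cascades. In the kidney, Egf is made mainly by the thick ascending limb and the distal convoluted tubule and is passed into the urine, while Hbegf and Areg are known as ligands induced in injured tubules.

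Total expected counts per library were 26448275 to 31786624. Col4a3, the targeted gene, was at 104, 70.6 and 138 CPM (counts scaled to a common library size, with TMM as the correction for RNA composition) in KO_antimiR21. It was at 44.3, 94.3 and 60.2 CPM in KO_PBS and at 371, 257 and 316 CPM in WT. The knockout libraries were thus all below the WT libraries for Col4a3 but retained reads of it, and the tables do not show which exons those reads came from. Summed Y-linked counts put WT 1 and WT 3 as female and the other 7 libraries, all 6 knockout libraries among them, as male. File names of WT 1, WT 2 and WT 3 carry F, M and F, which matched these calls, so the WT libraries came from more than 1 animal. Sex and genotype therefore cannot be told apart except through WT 2, the single male WT library. A code in the deposited names placed WT 1 to 3 and KO_PBS 1 and 2 under L4, and KO_PBS 3 and KO_antimiR21 1 to 3 under L5. What the code stands for is not given in the sources used here, and KO_antimiR21 and WT share no code. Markers of proximal tubule, thick ascending limb, distal convoluted tubule, collecting duct and podocyte were all detected in every group, with no kidney segment absent from any library.

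In KO_PBS kidneys, Egf fell and Areg rose against WT, and none of the 4 receptors passed the test. Egf was 13.5-fold lower and Areg 8.63-fold higher. Hbegf was 2.37-fold higher but missed the threshold by a small margin. The test was edgeR's quasi-likelihood test with Benjamini-Hochberg adjustment over all 17315 genes, with a threshold of 0.05, and every adjusted p below is from it unless another tool is named. Of the 10 genes, 1 was called higher and 1 lower, where 14.6% of all genes tested were called higher and 9.85% lower. The median log2 fold change of the 10 was 0.08, beside -0.03 over all genes tested.

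**Figure D1:**
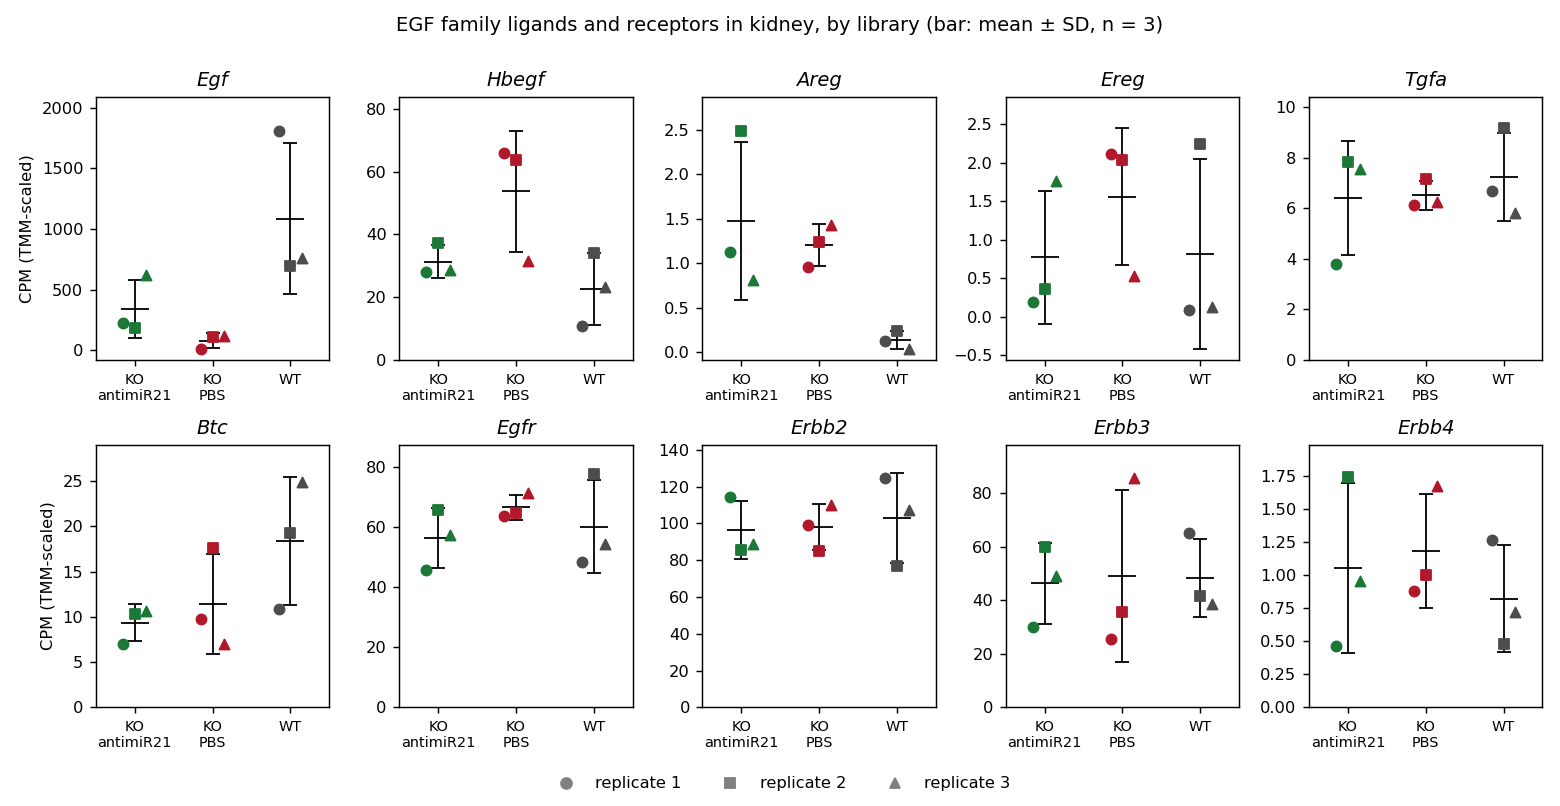
CPM of each of the 10 genes (y axis, linear, own scale per panel) in the 9 libraries by group (x axis), with symbols for replicate numbers and bars for mean ± SD (n = 3). Egf in KO_PBS, 11.9 to 121 CPM, lies below the other groups, and Areg in WT, 0.0402 to 0.241 CPM, lies below both knockout groups, while the 4 receptors overlap between groups.

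Egf, the ligand that gives the family its name, had 223, 188 and 618 CPM in KO_antimiR21. In KO_PBS it had 11.9, 108 and 121 CPM, against 1808, 694 and 760 CPM in WT. Every KO_PBS library was below every WT library, and KO_PBS 1 stood far under the other members of its group. The log2 fold change of KO_PBS over WT was -3.76 ± 0.87 (SE), with an adjusted p of 0.0158 (edgeR). Without KO_PBS 1 it was -3.26, and without WT 1 it was -3.16, or 8.96-fold lower, with the edgeR call kept in both (adjusted p = 0.0197 and 0.041). With sex as a covariate Egf was at -3.11 and no longer called (adjusted p = 0.114, edgeR), as it was among male libraries, at -3.09 (adjusted p = 0.133). In those fits, which rest on 1 male WT library, no gene at all was called. Within the L4 libraries the value was -4.19 (adjusted p = 0.0465, edgeR). In whole-kidney RNA, fewer cells of a type and less RNA per cell cannot be told apart.

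Areg encodes amphiregulin, a ligand of Egfr. Its counts were low, so they are given beside the scaled level. Expected counts were 29, 77 and 22 in KO_antimiR21, 35, 37 and 46 in KO_PBS, and 3, 6 and 1 in WT. On the CPM scale this was 1.12, 2.48 and 0.809 in KO_antimiR21, 0.959, 1.24 and 1.43 in KO_PBS, and 0.127, 0.241 and 0.0402 in WT. All 6 knockout libraries were above all 3 WT libraries. KO_PBS over WT gave a log2 fold change of 3.11 ± 0.63, with an adjusted p of 0.00887 (edgeR). The fold rests on few WT counts, and it was 14.1 without WT 2, the WT library with the most of them. Areg was at 2.31 (adjusted p = 0.141, edgeR) with sex as a covariate and 2.33 (adjusted p = 0.15) in males alone, and so was not called there, while within L4 it was at 2.97 (adjusted p = 0.0284).

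The promoters of these 2 genes are shown because they were the 2 called members and moved in opposite directions. Each is 300 bases, from 250 before to 50 after the start of the gene, from RefSeq on GRCm38.p6, whose table matched 7 of the 10 genes. Capitals mark matches to TGACGTCA, the cyclic AMP response element (CRE), and TATAAA, the TATA box. Areg lies at chr5:91139349-91139648 on the plus strand and Egf at chr3:129755273-129755572 on the minus strand.
Areg: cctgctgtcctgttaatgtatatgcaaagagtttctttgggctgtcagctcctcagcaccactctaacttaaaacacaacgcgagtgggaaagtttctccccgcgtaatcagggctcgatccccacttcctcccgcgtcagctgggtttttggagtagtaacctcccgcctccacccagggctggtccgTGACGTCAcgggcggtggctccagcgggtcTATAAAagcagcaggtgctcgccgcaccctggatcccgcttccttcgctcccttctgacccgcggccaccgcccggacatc
Egf: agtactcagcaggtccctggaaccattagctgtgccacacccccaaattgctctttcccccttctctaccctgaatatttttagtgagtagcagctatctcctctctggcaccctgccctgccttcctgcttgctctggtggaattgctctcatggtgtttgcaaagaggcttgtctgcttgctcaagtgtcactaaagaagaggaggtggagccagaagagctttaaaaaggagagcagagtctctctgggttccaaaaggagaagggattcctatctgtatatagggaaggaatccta
In Areg the CRE letters began 61 bases before the start and the TATA letters 31 bases before it, both on the plus strand and without overlap. The Egf window shown held neither, and neither window held TGANTCA, the AP-1 motif. RefSeq gave 2 promoter entries for Egf, and only the entry farthest upstream is shown and described. Both strands were searched in 32851 promoters of the same length, of which 1.79% held the CRE letters, 13.6% the TATA letters and 7.81% the AP-1 letters. A match describes the sequence and is not evidence that a factor binds there.

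Hbegf encodes heparin-binding EGF-like growth factor, a ligand of Egfr and Erbb4. It had 28.0, 37.3 and 28.5 CPM in KO_antimiR21. It had 66.0, 63.7 and 31.5 CPM in KO_PBS, against 10.9, 34.0 and 23.2 CPM in WT. KO_PBS 1 and 2 were above all other libraries, but KO_PBS 3 lay below WT 2. The log2 fold change of KO_PBS over WT was 1.24 ± 0.41, with an adjusted p of 0.0539 (edgeR), and so Hbegf was not called. It passed without KO_PBS 3 (1.50, adjusted p = 0.033), without WT 2 (1.67, adjusted p = 0.0288) and with the library code as a covariate (1.51, adjusted p = 0.0335), all by edgeR. It also passed by DESeq2, at 1.25 with an adjusted p of 0.0121. In all, Hbegf passed in 7 of 23 alternatives. It was not called without KO_PBS 1 (adjusted p = 0.15, edgeR) or without KO_PBS 2 (adjusted p = 0.144, edgeR). With sex as a covariate the log2 fold change fell to 0.66, and among male libraries to 0.69, fits that rest on 1 male WT library.

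The other ligands did not pass. Ereg (epiregulin) had 0.194, 0.354 and 1.76 CPM in KO_antimiR21, 2.11, 2.04 and 0.528 CPM in KO_PBS, and 0.0844, 2.25 and 0.121 CPM in WT. Each group held both low and high libraries, and KO_PBS over WT was 0.92 ± 1.17 on the log2 scale (adjusted p = 0.619, edgeR). Over the libraries left out in turn it ran from 0.39 to 3.89, with 3.89 (adjusted p = 0.0581, edgeR) without WT 2, the library highest in Ereg. Tgfa (transforming growth factor alpha, a ligand of Egfr) ran from 3.80 to 7.83 CPM in KO_antimiR21, from 6.14 to 7.18 in KO_PBS and from 5.83 to 9.18 in WT, with overlapping groups. Btc (betacellulin, a ligand of Egfr and Erbb4) had 7.02, 10.3 and 10.7 CPM in KO_antimiR21, 9.76, 17.7 and 6.99 CPM in KO_PBS, and 10.9, 19.3 and 24.9 CPM in WT. KO_PBS and WT overlapped for Btc, at a log2 fold change of -0.68 ± 0.39 (adjusted p = 0.247, edgeR).

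Egfr had 45.8, 65.6 and 57.2 CPM in KO_antimiR21, 63.7, 64.6 and 71.2 CPM in KO_PBS, and 48.3, 77.7 and 54.2 CPM in WT. WT 2 was the highest library and KO_antimiR21 1 the lowest, and the WT range enclosed all of KO_PBS. KO_PBS over WT was 0.15 ± 0.20 on the log2 scale (adjusted p = 0.644, edgeR). Erbb2 ran from 85.7 to 114 CPM in KO_antimiR21, 85.0 to 110 CPM in KO_PBS and 76.8 to 125 CPM in WT, a log2 fold change of KO_PBS over WT of -0.07 ± 0.20. Erbb3 had 30.1, 60.0 and 49.1 CPM in KO_antimiR21, 25.7, 35.5 and 85.7 CPM in KO_PBS, and 65.0, 41.5 and 38.6 CPM in WT. KO_PBS held both the lowest and the highest Erbb3 library, and the fold change over WT was 0.02 ± 0.44. Erbb4 was near the detection limit, at 0.465 to 1.74 CPM in KO_antimiR21, 0.877 to 1.68 CPM in KO_PBS and 0.481 to 1.27 CPM in WT. Its log2 fold change of KO_PBS over WT was 0.52 ± 0.54 (adjusted p = 0.534, edgeR). A row spelled erbB4 was kept apart and held at most 5.16 expected counts in a library. Of the 10 genes, 2 (Egf and Areg) did not overlap between KO_PBS and WT, where 43.1% of all genes tested did not overlap.

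**Figure D2:**
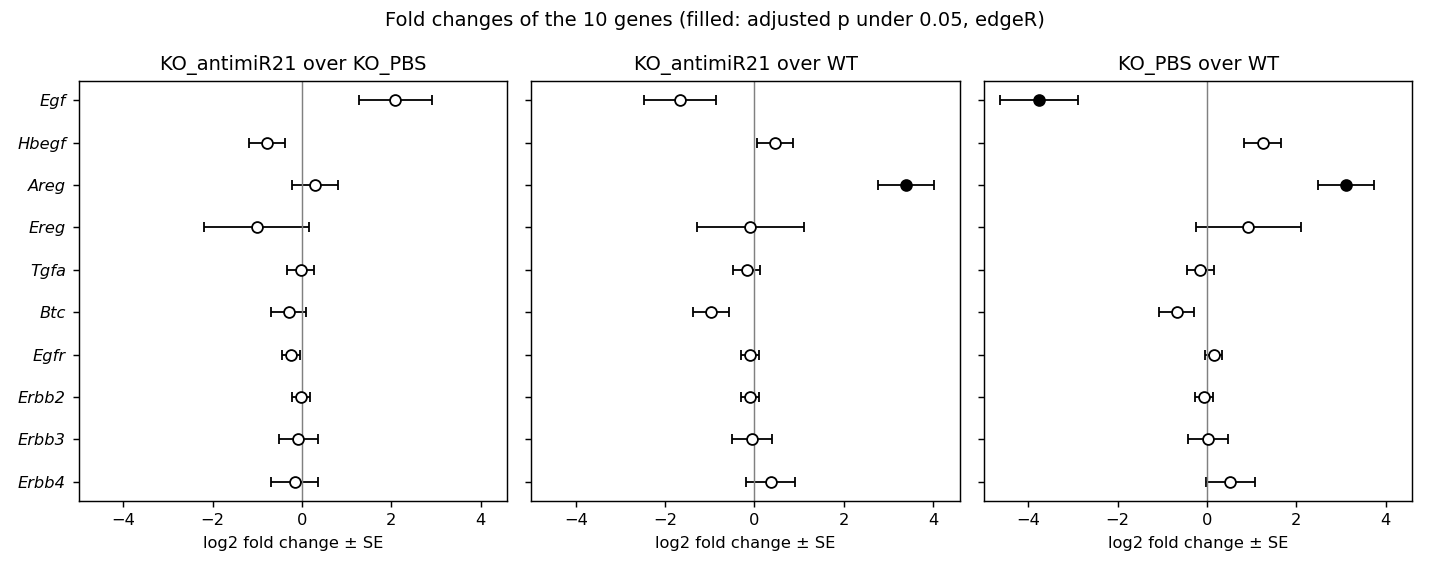
Log2 fold change ± SE (x axis) of each of the 10 genes (rows) in the 3 comparisons, filled where the adjusted p is under 0.05 in edgeR. Filled points are Areg over WT in both knockout groups, at 3.40 and 3.11, and Egf in KO_PBS over WT, at -3.76. No receptor is filled, and Erbb4 in KO_PBS over WT, at 0.52 ± 0.54, lies farthest from 0 among the receptors.

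Against KO_PBS, no gene of the 10 was called in KO_antimiR21, and 0% of all genes tested were called higher and 0% lower in edgeR. Unadjusted p was under 0.05 for 1203 of the 17315 genes, and DESeq2 called 19. Egf was the 1 member whose groups did not overlap, with 223, 188 and 618 CPM in KO_antimiR21 against 11.9, 108 and 121 CPM in KO_PBS. Across all genes tested, 10.7% did not overlap between these groups. The Egf log2 fold change was 2.09 ± 0.82, or 4.26-fold, with an unadjusted p of 0.0306 and an adjusted p of 0.707 (edgeR). It was 1.60 without KO_PBS 1 and 1.37 without KO_antimiR21 3. Set against KO_PBS 3 alone, the KO_PBS library that shares their code, the 3 KO_antimiR21 libraries had Egf at 1.50 and Hbegf at -0.01. Over all libraries Hbegf was at -0.78 ± 0.40 (adjusted p = 0.715, edgeR), with KO_antimiR21 2, at 37.3 CPM, above KO_PBS 3, at 31.5 CPM. The other 8 members ran from -1.01 ± 1.17 for Ereg, at -2.45 without KO_antimiR21 3, to 0.29 ± 0.51 for Areg.

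Against WT, Areg was the 1 member called in KO_antimiR21, higher by 3.40 ± 0.63 on the log2 scale, or 10.6-fold, with an adjusted p of 0.0125 (edgeR). Of all genes tested, 6.72% were called higher and 0.427% lower. The genes called lower, 74 in all, were 2 without KO_antimiR21 2 and 158 without WT 2. The Areg call was lost without WT 1 (3.38, adjusted p = 0.0508), with sex as a covariate (2.60, adjusted p = 0.258), among males (2.63, adjusted p = 0.259) and with the library code as a covariate (3.02, adjusted p = 0.347), all in edgeR. Its fold was 17.3 without WT 2 and 6.98 without KO_antimiR21 2. Egf stayed below the WT range in all 3 KO_antimiR21 libraries, 188 to 618 CPM against 694 to 1808 CPM, but the difference was not called (-1.67 ± 0.80, or 3.17-fold lower, adjusted p = 0.292, edgeR). Egf was 5.28-fold lower without KO_antimiR21 3 and 2.09-fold lower without WT 1. It was 2.02-fold lower with sex as a covariate, 1.99-fold lower among males and 6.42-fold lower with the library code as a covariate, and it was not called in any of these fits. Btc also did not overlap, with 7.02 to 10.7 CPM in KO_antimiR21 against 10.9 to 24.9 CPM in WT, at -0.97 ± 0.39 with an unadjusted p of 0.0359 and an adjusted p of 0.209 (edgeR). With the library code as a covariate Btc was at -0.0028 (adjusted p = 0.999, edgeR). These 3 of 10 members stood apart, where 24.5% of all genes tested did. The comparison shares its WT libraries with KO_PBS against WT and its KO_antimiR21 libraries with KO_antimiR21 against KO_PBS.

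To set the ligands beside each other, CPM was divided by the length of the longest coding transcript in the GENCODE annotation of GRCm38, giving CPM per kb. In KO_antimiR21 the order was Egf (72.0 ± 50.2 CPM per kb, SD, n = 3), Hbegf (13.2 ± 2.21), Btc (3.25 ± 0.705), Tgfa (1.41 ± 0.498), Areg (1.21 ± 0.731) and Ereg (0.187 ± 0.209). Tgfa and Areg overlapped in that order, while Egf was above Hbegf in all 3 libraries. KO_PBS had Hbegf first, at 22.6 ± 8.13 CPM per kb, followed by Egf at 16.9 ± 12.5, Btc at 3.99 ± 1.93, Tgfa at 1.44 ± 0.126, Areg at 0.994 ± 0.194 and Ereg at 0.377 ± 0.216. There the libraries of Hbegf and Egf overlapped, as did those of Egf and Btc. WT had Egf at 228 ± 131 CPM per kb, Hbegf at 9.56 ± 4.85, Btc at 6.39 ± 2.45, Tgfa at 1.60 ± 0.385, Ereg at 0.198 ± 0.300 and Areg at 0.112 ± 0.0827. Hbegf and Btc overlapped in WT, and so did Ereg and Areg.

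Egf made up 74.5%, 63.0% and 87.5% of the summed CPM per kb of the 6 ligands in KO_antimiR21. Its share was 6.90%, 38.6% and 58.2% in KO_PBS and 97.4%, 86.0% and 89.0% in WT. The KO_PBS shares were all below those of the other groups, and KO_antimiR21 3 lay within the WT range. As group means the Egf share was 75.0 ± 12.3% in KO_antimiR21, 34.6 ± 25.9% in KO_PBS and 90.8 ± 5.94% in WT (SD, n = 3). The Hbegf share averaged 17.3 ± 8.59% in KO_antimiR21, 50.8 ± 23.6% in KO_PBS and 5.02 ± 3.64% in WT. Per length, Hbegf was 11.1 times Egf in KO_PBS 1, 1.18 times in KO_PBS 2 and 0.519 times in KO_PBS 3. These shares describe transcripts, not protein, and combine the Egf and Hbegf differences given above. Among the receptors, Erbb2 had the highest level per length in every library, 15.3 to 24.9 CPM per kb. Egfr, at 4.49 to 7.62 CPM per kb, and Erbb3, at 4.27 to 14.3 CPM per kb, overlapped, and Erbb4 was lowest at 0.0387 to 0.145 CPM per kb.

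**Figure D3:**
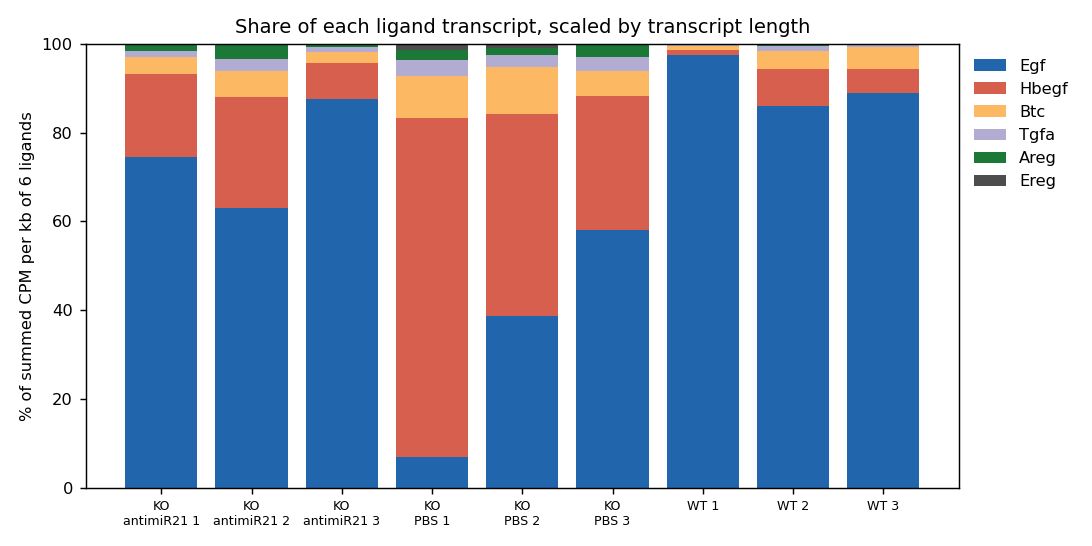
Share of each ligand in the summed CPM per kb of the 6 ligands (y axis, percent) in each library (x axis), stacked to 100%. Egf fills 63.0% to 87.5% of the bar in KO_antimiR21, 6.90% to 58.2% in KO_PBS and 86.0% to 97.4% in WT, with Hbegf taking most of the remainder in KO_PBS.

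Egf was next set against markers of the segments that make it. Of 8 thick ascending limb markers, 6 fell in KO_PBS against WT and none rose, where 9.85% of all genes tested fell and 14.6% rose. The list had a median log2 fold change of -1.37. Examples were the prostaglandin receptor gene Ptger3 (-1.64 ± 0.27) and the potassium channel gene Kcnj1 (-1.36 ± 0.22). Umod, which encodes the urinary protein uromodulin, was not called, at -0.42 ± 0.35. Of 6 distal convoluted tubule markers, 3 fell: the calcium-binding protein genes Pvalb (-4.35 ± 0.65) and Calb1 (-2.06 ± 0.42) and the kinase gene Wnk4 (-1.17 ± 0.21). Calb1 had 830 CPM in WT 1, beside 313 and 250 CPM in WT 2 and WT 3. Slc12a3 was not called, at -1.37 ± 0.58. It had 110, 162 and 243 CPM in KO_PBS and 909, 198 and 225 CPM in WT, so its groups overlapped. Of the 6, 5 had a negative log2 fold change and 1, Trpm6, a positive value (0.12 ± 0.35). Summed over the list, the thick ascending limb markers had 4087 to 6645 CPM in KO_antimiR21, 2344 to 4543 CPM in KO_PBS and 5048 to 7920 CPM in WT. The distal convoluted tubule markers had 689 to 859 CPM in KO_antimiR21, 488 to 632 CPM in KO_PBS and 974 to 2495 CPM in WT. In KO_antimiR21 against WT, 1 thick ascending limb marker and 1 distal convoluted tubule marker were called lower, where 0.427% of all genes tested were. The thick ascending limb count ran from 0 to 2 over the libraries left out in turn. The distal convoluted tubule marker was Wnk4, at -0.81 ± 0.21. Its call was lost without any of 7 libraries, all but WT 2 and WT 3.

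Egf was also computed relative to the mean of these 14 markers, library by library. The log2 CPM of Egf minus that mean was 0.95, 0.86 and 2.13 in KO_antimiR21, -2.47, 0.41 and 0.45 in KO_PBS, and 2.77, 2.17 and 2.02 in WT. KO_PBS lay below both other groups on this measure, and KO_antimiR21 3 lay within the WT range. The difference of KO_PBS from WT was -2.85 on the log2 scale (two-sided exact permutation p = 0.1, the smallest that 3 libraries against 3 allow). KO_antimiR21 differed from KO_PBS by 1.85 (exact permutation p = 0.1) and from WT by -1.01 (exact permutation p = 0.2). Without KO_PBS 1 the first difference was -1.89 and the second was 0.88. The part of these segments' lower marker levels in the Egf difference was not tested further.

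**Figure D4:**
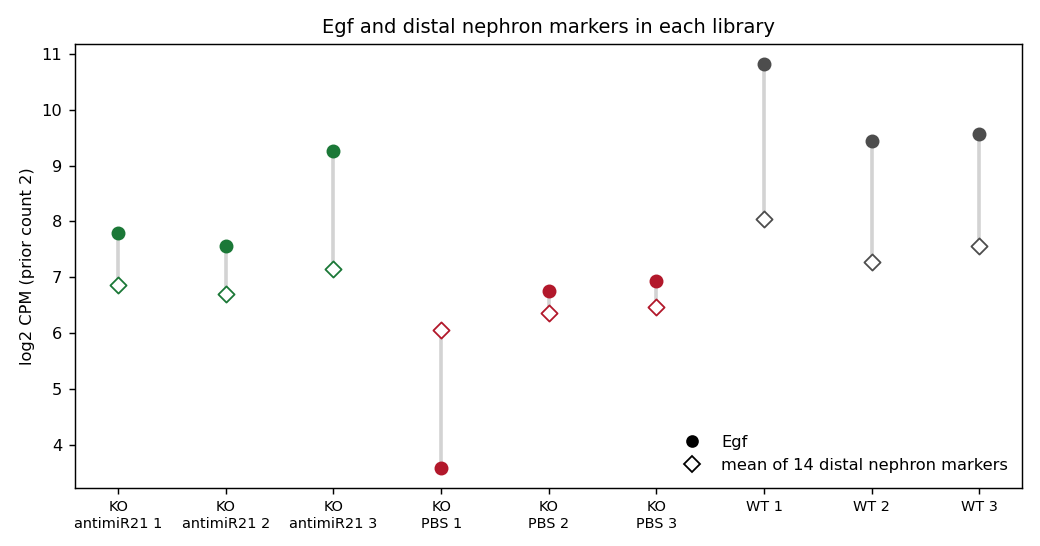
Log2 CPM (y axis, prior count 2) of Egf (filled circles) and the mean of 14 thick ascending limb and distal convoluted tubule markers (open diamonds) in each library (x axis). Egf lies above the marker mean in all libraries but KO_PBS 1, by 0.86 to 2.13 in KO_antimiR21, up to 0.45 in KO_PBS and 2.02 to 2.77 in WT.

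Genes of other cell types moved in the same comparison, in which 14.6% of all genes tested were called higher and 9.85% lower. In KO_PBS against WT, 5 of 8 proximal tubule markers fell (median -1.46), with Miox, an inositol oxygenase gene, at -2.92 ± 0.60, and 5 of 8 collecting duct markers fell (median -0.99), with Slc4a1, an anion exchanger gene, at -2.61 ± 0.47. No podocyte marker of 5 was called (median 0.04), nor any urothelial marker of 5 (median 0.20), and 1 of 5 endothelial markers fell (median -0.56), Tek at -0.57 ± 0.17. The proximal tubule count was 2 without KO_PBS 1, KO_PBS 2 or WT 1 and 3 without WT 3, the collecting duct count was 2 without KO_PBS 1, KO_PBS 2 or WT 3, and the Tek call was lost without KO_antimiR21 1, KO_antimiR21 3, KO_PBS 1, KO_PBS 3, WT 1 or WT 3. Rising markers were 8 of 9 for macrophages (median 3.55), 7 of 7 for T cells (median 2.26), 2 of 3 for neutrophils (median 1.94) and 6 of 7 for fibroblasts and pericytes (median 2.26). The T cell count was 4 without KO_PBS 2, and the neutrophil count was 1 without KO_PBS 3, WT 1 or WT 3. Both lists were low: summed T cell markers were 18.3 to 22.5 CPM in KO_PBS and 4.85 to 6.03 CPM in WT. Summed neutrophil markers were 13.1 to 14.8 CPM in KO_PBS and 1.73 to 3.33 CPM in WT. All 7 genes of tubular injury rose (median 4.30), with Spp1 at 3.65 ± 0.44, Cd44 at 4.30 ± 0.60 and Vcam1 at 4.42 ± 0.62. Summed macrophage markers were 388 to 831 CPM in KO_antimiR21, 813 to 1075 CPM in KO_PBS and 172 to 210.1 CPM in WT. Summed injury genes were 7733 to 20706 CPM in KO_antimiR21, 16763 to 27893 CPM in KO_PBS and 1263 to 2117 CPM in WT. Whether these cells or this injury account for the Areg difference was not tested. In KO_antimiR21 against WT, 6.72% of all genes tested were called higher and 0.427% lower. There 8 macrophage, 6 T cell, 1 neutrophil, 4 fibroblast and 6 injury genes were called higher. No proximal tubule, collecting duct, podocyte, endothelial or urothelial gene was called. Of these counts, the T cell count ran from 1 to 6 over the libraries left out in turn, with 1 without KO_antimiR21 1 or KO_antimiR21 2, 2 without WT 2 or WT 3, and 3 without KO_PBS 2, KO_PBS 3 or WT 1. The injury count was 3 without WT 3, and the neutrophil count 2 without KO_antimiR21 3. The fibroblast count ran from 3 to 5 over the libraries left out in turn.

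Further genes of the pathway were followed as lists. Of the other ligands, Nrg1, a neuregulin that binds Erbb3 and Erbb4, rose by 2.13 ± 0.31 in KO_PBS against WT (adjusted p = 0.00247, edgeR) and by 1.66 ± 0.31 in KO_antimiR21 against WT (adjusted p = 0.0129), a call lost without KO_antimiR21 2. Nrg4 was not called (-1.58 ± 0.62 in KO_PBS against WT, called lower without KO_antimiR21 2 or KO_antimiR21 3), and Epgn, at 0 to 5 counts, did not pass the filter. Among 8 sheddases and carriers, 4 rose in KO_PBS against WT and none fell, where 14.6% of all genes tested rose and 9.85% fell. The list median was 0.48. The 4 were Adam8 (3.97 ± 0.57), a protease that myeloid cells also make, Adam12 (1.73 ± 0.46), Rhbdf2 (1.56 ± 0.22) and Rhbdf1 (0.57 ± 0.18). Rhbdf2 and Rhbdf1 are inactive rhomboids, which carry Adam17 to the cell surface. Adam17 (0.33 ± 0.15) and Adam10 (0.39 ± 0.17), the main sheddases of this family's ligands, were not called. The count of 4 was 2 without WT 2, KO_PBS 2 or KO_PBS 3. In KO_antimiR21 against WT, Adam8 (3.61 ± 0.56) and Rhbdf2 (1.06 ± 0.22) were called higher, where 6.72% of all genes tested were. Only 1 gene of the list was called without KO_antimiR21 1, KO_antimiR21 2, WT 1 or WT 2.

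Downstream of the receptors, no gene of 10 for receptor inhibition and turnover was called in KO_PBS against WT (median -0.08), and Errfi1, a feedback inhibitor of Egfr, was at -0.22 ± 0.33. Of 19 adaptor and cascade genes, 3 rose (median -0.11), a share near the 14.6% of all genes tested: Akt1 by 0.74 ± 0.13, Nras by 0.89 ± 0.16 and Shc1 by 0.54 ± 0.13. Of 16 ERK feedback and response genes, 4 rose (median 0.50), where 14.6% of all genes tested did: the transcription factor genes Myc (2.99 ± 0.28) and Fosl1 (4.14 ± 0.71), the feedback inhibitor Spry1 (1.04 ± 0.29) and the phosphatase Dusp5 (1.77 ± 0.55). Fosl1 was low, at 0.515 to 1.26 CPM in KO_antimiR21, 1.51 to 2.17 CPM in KO_PBS and 0 to 0.201 CPM in WT. Dusp5 was at 2.55 to 3.40 CPM in KO_PBS and 0.253 to 1.60 CPM in WT. The folds of these genes over WT thus rest on few WT counts. Dusp6 (0.23 ± 0.12) and Egr1 (0.95 ± 0.89) were not called. That count of 4 was 2 without KO_PBS 1, KO_PBS 2 or WT 3. In KO_antimiR21 against WT, Myc (2.02 ± 0.28) and Fosl1 (3.17 ± 0.71) were the 2 called of this list, with 1 called without KO_antimiR21 1, KO_antimiR21 2, KO_PBS 2 or WT 2. Of 7 genes of magnesium handling, a distal process that Egf is known to stimulate, 1 fell in KO_PBS, Fxyd2 at -1.06 ± 0.23, where 9.85% of all genes tested fell. Trpm6, the magnesium channel gene, was at 0.12 ± 0.35. In KO_antimiR21 against KO_PBS no gene of any list was called by edgeR. The list medians there were 0.68 for the proximal tubule, 0.59 for the thick ascending limb, 0.41 for the distal convoluted tubule, 0.23 for the urothelium, 0.13 for the collecting duct and 0.02 for podocytes, beside -0.01 over all genes tested. They were -1.20 for fibroblasts and pericytes, -0.66 for tubular injury, -0.59 for macrophages, -0.43 for ERK feedback and response, -0.29 for neutrophils, -0.20 for T cells and -0.16 for the endothelium. Among the other pathway lists, sheddases and carriers were at -0.22, receptor inhibition and turnover at -0.09 and adaptors and the cascade at -0.04. Magnesium handling was at 0.09, and the 2 other ligands tested were at 0.64. Genes of these lists respond to other receptors as well. Immune cell markers rose in KO_PBS against WT, as given above, and their part in the counts of that comparison was not tested.

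**Figure D5:**
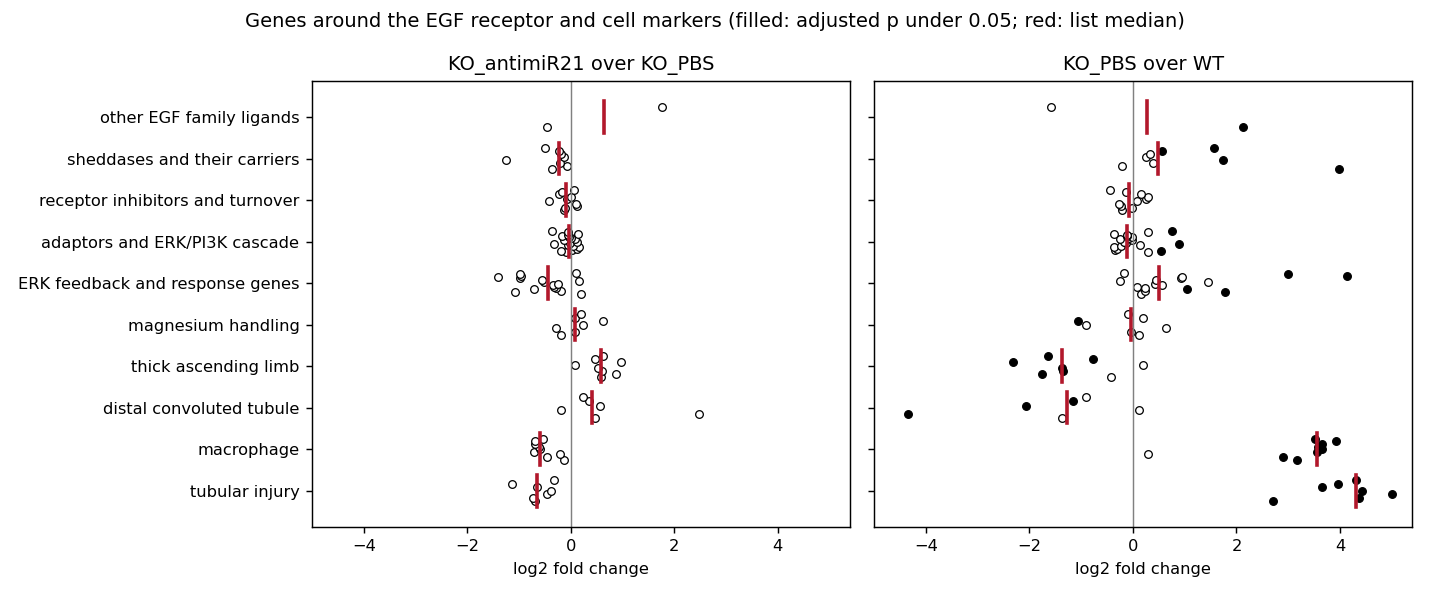
Log2 fold change (x axis) of each gene of 10 lists (rows) in KO_antimiR21 over KO_PBS and in KO_PBS over WT, filled where the adjusted p is under 0.05 in edgeR, with the list median in red. No gene is filled in KO_antimiR21 over KO_PBS, and in KO_PBS over WT the thick ascending limb median is -1.37 and the tubular injury median is 4.30.

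Because 1 group received an inhibitor of miR-21, the genes were searched for letters that pair with its seed. The mature microRNA lies at chr11:86584120-86584141 on the minus strand of GRCm38.p6 in RefSeq, and capitals mark the seed, bases 2 to 8. In the sites below it, from the transcript named for each gene's length above, capitals mark the 7 letters ATAAGCT that pair with that seed.
mmu-miR-21a-5p: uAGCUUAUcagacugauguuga
Egf: cattcatatATAAGCTgtgtcttct
Egfr: tttcttttgATAAGCTtgtgcttgt
Erbb4: aaagactatATAAGCTccaatatca
These 3 of 10 genes held the letters in the 3′ UTR. The Egf site lies at chr3:129678050-129678074 on the minus strand, the Egfr site at chr11:16915548-16915572 on the plus strand and the Erbb4 site, 1 of 2 in that gene, at chr1:68034775-68034799 on the minus strand, all in GRCm38. None of the 10 held the 8 letters ATAAGCTA. Of 11788 tested genes with a 3′ UTR in the annotation, 68.1% of those tested, 7.75% held the 7 letters and 2.44% the 8. The median 3′ UTR of those genes was 1105 bases, against 758 bases in Egf, 6306 in Egfr and 7858 in Erbb4, and these shares are not matched for length. In KO_antimiR21 over KO_PBS the 3 genes with a site were at 2.09 ± 0.82 for Egf, -0.24 ± 0.20 for Egfr and -0.16 ± 0.53 for Erbb4, none of them called by edgeR. A match of letters is a description and does not show a site in use.

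Genes with the pattern closest to Egf, Egfr and Hbegf were found by the root mean square difference of log2 CPM, each gene centred on its own mean over the 9 libraries, among the 12475 genes whose log2 CPM averaged 2 or more. Closest to Egf were C8a (0.512), Slc22a9 (0.516), Es22 (0.592), Aadat (0.604) and AK046742 (0.614), where the median over all those genes was 2.01. C8a had 28.5, 11.1 and 34.7 CPM in KO_antimiR21, 0.987, 13.3 and 9.23 CPM in KO_PBS, and 72.4, 64.8 and 56.8 CPM in WT. As with Egf, KO_PBS 1 was the lowest library and the WT libraries were the highest. Closest to Egfr were Recql (0.0812), Shroom3 (0.0923), Fgd6 (0.101), Ppp4r2 (0.103) and Dnajb1 (0.119), against a median of 0.372, and none of these was called in any comparison. Closest to Hbegf were Npal1 (0.192), 1300014I06Rik (0.201), Cebpb (0.216), Plaur (0.231) and Jun (0.249), against a median of 0.783. Of those, 1300014I06Rik (1.43, adjusted p = 0.0198), Plaur (1.37, adjusted p = 0.0453) and Jun (1.38, adjusted p = 0.0119) were called higher in KO_PBS against WT by edgeR. The 9 libraries also differ in depth, sex and marker levels, and the part of these in the likeness was not tested.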

How the data were processed

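Whole-kidney RNA was sequenced in 9 libraries, 3 in each of 3 groups taken from the sample titles and descriptions. The authors deposited expected counts per gene symbol for each library, made with Bowtie and RSEM on mm9, per the submitters' processing notes, with versions and gene annotation not given in the sources used here. A log2 matrix was deposited by the authors as well, and the same notes name limma. Each matrix column equalled log2 CPM plus a constant per library, to within 5.1e-14. Per the labels' protocols, the library kit was TruSeq RNA v2. No strand setting is given, so genes that overlap, antisense ones included, cannot be told apart. The tables held 97 symbols that differ from another in letter case alone, and 111 symbols were at 0 throughout.

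Rounding gave whole counts, and filterByExpr set which genes were tested. All 9 libraries entered 1 edgeR quasi-likelihood fit with TMM scaling (0.894 in WT 1 to 1.15 in KO_PBS 1), with two-sided p-values and Benjamini-Hochberg adjustment over 17315 genes in each comparison. Log2 CPM used a prior count of 2. The SE of each edgeR log2 fold change was derived from the test, as its absolute value divided by the square root of the F statistic. The analysis code was tested on simulated data. Members and lists were chosen with earlier results of these data known. Named genes were the 10 members, genes taken from the 3 with the lowest p-values of each list in KO_PBS against WT, of which only a part is printed, and the 5 genes closest in pattern to Egf, Egfr and Hbegf. Umod, Slc12a3, Adam10, Adam17, Errfi1, Dusp6, Egr1, Trpm6, Nrg4, Epgn and the remaining called genes of short lists were named beside them, after their values were seen. A listed gene that the rule would name is not reported here. Symbols of the files are older in part: Npal1 is Nipal1, Es22 is Ces1e and 1300014I06Rik is Pxdc1 in RefSeq. Coordinates and sequences are from GRCm38, not from the mm9 build of the counts. Alternatives were other scalings, filters, tests and covariates, and each library left out in turn. Versions were edgeR 4.0.16, DESeq2 1.42.0 and limma 3.58.1 under R 4.3.3, and numpy 2.4.6, pandas 2.3.3 and matplotlib 3.10.9 under Python 3.11.15.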

Additional observations from a re-analysis of the deposited data

How the results depend on the processing

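Egf and Areg kept their direction under every alternative run in KO_PBS against WT, at -4.21 to -3.09 and 2.31 to 3.81 on the log2 scale, and lost their calls in 2 alternatives that account for sex, which leave 1 male WT library. With sex as a covariate, and again among males, the counts of genes and of members called were 0 and 0 in KO_PBS against WT and 0 and 0 in KO_antimiR21 against WT, as they were in KO_antimiR21 against WT with the library code as a covariate, a fit in which those groups share no code and the difference rests on KO_PBS, with 1 library under L5. DESeq2 called 19 genes in KO_antimiR21 against KO_PBS and 2010 in KO_antimiR21 against WT, and a fit of those 2 groups alone called 707 there. Leaving out 1 library gave 2423 to 4332 genes and 2 to 3 members in KO_PBS against WT (2423 without KO_PBS 1 and 2584 without KO_PBS 2), 0 genes and 0 members in KO_antimiR21 against KO_PBS, and 667 to 1602 genes and 0 to 1 members in KO_antimiR21 against WT (667 without WT 3, 679 without KO_antimiR21 2, 758 without WT 1 and 795 without KO_antimiR21 1). The genes called lower in KO_antimiR21 against WT, 74 in all, were 2 without KO_antimiR21 2, 16 without WT 3, 17 without KO_antimiR21 1, 23 without KO_PBS 2, 24 without KO_PBS 3, 33 without WT 1, 135 without KO_antimiR21 3, 158 without WT 2 and 11 in the fit of those 2 groups alone. Scaling by library size alone moved the all-gene median in KO_PBS against WT to 0.25 on the log2 scale and the calls to 3753 higher and 904 lower, beside 2521 and 1705 with TMM.

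Libraries that share a replicate number did not deviate together throughout (correlations -0.367 to 0.438 over 9 pairs, 3 of them over 0.1). Pairs with different numbers ran from -0.357 to 0.44. Deviations were taken within groups of 3 libraries, so this check cannot exclude a pairing, and the main fit used none. With the replicate block, KO_PBS against WT had 2076 genes higher and 1129 lower, Egf at -4.00 and Areg at 3.27, both still called, and KO_antimiR21 against WT had 881 higher and 42 lower. Erbb3 under the block turned to -0.15 in KO_PBS against WT and 0.0094 in KO_antimiR21 against KO_PBS, and Ereg to 0.54 in KO_antimiR21 against WT.

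The other changes of direction were in members not called in either fit, and the cause was not tested. In KO_PBS against WT, with sex as a covariate and then among males, Egfr was at -0.23 and -0.20, Ereg at -0.53 and -0.50, and Erbb2 at 0.35 and 0.38. By library size alone Tgfa was at 0.13 and Erbb2 at 0.21. Erbb3 was at -0.14 by limma voom, -0.14 by limma on the matrix, and -0.66 both with the code as a covariate and within L4. In KO_antimiR21 against KO_PBS, with the code as a covariate and then within L5, Ereg was at 0.54 and 0.54, Tgfa at 0.037 and 0.037, and Btc at 0.42 and 0.42. Erbb3 was at 0.063 by voom and 0.076 on the matrix. In KO_antimiR21 against WT, library size alone gave Egfr 0.063, Ereg 0.025, Erbb2 0.047 and Erbb3 0.11. Accounting for sex gave Hbegf -0.12 and -0.087, Erbb2 0.33 and 0.36, and Erbb3 0.16 and 0.19. Ereg was at 0.68 by voom, 0.70 on the matrix and 1.87 with the code, and Erbb4 at -0.47 with the code. Leaving out 1 library in KO_PBS against WT gave ranges of -0.31 to 0.078 for Tgfa, -0.23 to 0.11 for Erbb2 and -0.68 to 0.32 for Erbb3. In KO_antimiR21 against KO_PBS these were -0.30 to 0.60 for Areg, -0.17 to 0.24 for Tgfa, -0.52 to 0.16 for Btc, -0.17 to 0.097 for Erbb2, -0.37 to 0.63 for Erbb3 and -0.71 to 0.20 for Erbb4. In KO_antimiR21 against WT they were -0.21 to 0.16 for Egfr, -1.54 to 2.87 for Ereg, -0.33 to 0.091 for Tgfa, -0.24 to 0.092 for Erbb2, -0.28 to 0.24 for Erbb3 and -0.19 to 0.83 for Erbb4. Depth limits Areg in WT, Ereg and Erbb4, which had fewer than 100 counts in each library. With the mean transcript length in place of the longest, an alternative added after seeing the data, the Egf share was 78.9% in KO_antimiR21, 38.8% in KO_PBS and 92.5% in WT.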
